A study of Homo sapiens with 9 samples.

Results

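The genes described here are the LINC-named long noncoding RNAs expressed in MDA-MB-231, an established human basal breast cancer cell line of the triple negative kind. They were chosen by measured values: a symbol made of LINC and digits, and a mean over all 9 libraries of at least -1 in the deposited log2 CPM, counts per 1000000. The choice gave 195 genes of the 392 LINC-named rows in that table of 18934 genes. The table of estimated counts, which holds 60240 genes, has 2121 LINC-named rows.

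All cells carried a lentiviral vector that doxycycline switches on, and all received doxycycline at 100 ng/ml for 3 days. Control cells made GFP and luciferase alone. ERβ1 cells made GFP and luciferase with isoform 1 of oestrogen receptor beta, the ESR2 product. The third group was ERβ1 cells that also had the ligand CLI for 24 h. Each group held 3 libraries of 39902456 to 55387538 estimated counts, and the labels do not say that replicates were separate cultures, so p-values cover only the spread between samples, which may be technical. No control cells with CLI were analysed, so an action of CLI that bypasses the receptor cannot be told apart from one through it. The receptor is forced from a transgene in 1 transduced line. ESR2 itself read 0.134, 0.134 and 0.141 CPM in control libraries, 118, 115 and 118 CPM in ERβ1 libraries and 82.6, 87.7 and 82.2 CPM with CLI, as labelled in all 9 libraries.

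Long intergenic noncoding RNAs are transcripts that are spliced and polyadenylated like messenger RNAs but have no known long reading frame. Some act on the gene next to them, some hold protein complexes or bind microRNAs, a few turn out to encode short peptides, and for most no function is known. They tend to be expressed at low levels and in few cell types. ERβ is a nuclear receptor that binds DNA at oestrogen response elements, inverted repeats of a short arm, and can also reach DNA through other factors such as AP-1, the dimer of Jun and Fos proteins.

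Promoter windows of 5 of the RNAs are printed first, because the comparisons below turn on these genes: LINC02511 and LINC00601 rose with the receptor, LINC02725 rose and has more than 1 AP-1 match, LINC02762 rose with the receptor, and LINC00261 fell. LINC02762 was also called higher with CLI than with ERβ1 alone, a call that depended on the fit, as given below. Each window runs 5′ to 3′ on the gene's strand, from 250 bases before the RefSeq start to 50 bases from it onward, in GRCh38.p14. Capitals mark matches to the AP-1 motif TGANTCA or the TATA motif TATAAA, on either strand. The windows are chr4:137212750-137213049 (minus strand), chr10:126421830-126422129 (minus), chr11:128095509-128095808 (plus), chr11:112270499-112270798 (plus) and chr20:22578593-22578892 (minus), in the order printed.
LINC02511: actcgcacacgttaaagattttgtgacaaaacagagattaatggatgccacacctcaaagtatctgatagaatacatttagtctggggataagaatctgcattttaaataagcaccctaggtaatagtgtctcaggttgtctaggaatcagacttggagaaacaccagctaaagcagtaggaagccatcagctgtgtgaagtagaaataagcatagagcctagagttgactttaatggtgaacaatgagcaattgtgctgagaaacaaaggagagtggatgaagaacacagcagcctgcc
LINC00601: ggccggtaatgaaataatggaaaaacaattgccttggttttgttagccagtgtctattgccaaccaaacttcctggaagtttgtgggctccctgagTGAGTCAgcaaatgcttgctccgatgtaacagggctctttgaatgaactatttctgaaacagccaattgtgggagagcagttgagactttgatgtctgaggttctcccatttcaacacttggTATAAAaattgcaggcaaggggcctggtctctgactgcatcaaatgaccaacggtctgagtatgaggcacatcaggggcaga
LINC02725: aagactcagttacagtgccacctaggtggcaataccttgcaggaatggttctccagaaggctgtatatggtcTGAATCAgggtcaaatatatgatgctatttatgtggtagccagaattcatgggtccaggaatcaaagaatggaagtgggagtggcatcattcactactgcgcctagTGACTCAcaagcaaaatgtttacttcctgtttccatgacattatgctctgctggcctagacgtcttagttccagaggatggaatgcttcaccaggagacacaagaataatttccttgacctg
LINC02762: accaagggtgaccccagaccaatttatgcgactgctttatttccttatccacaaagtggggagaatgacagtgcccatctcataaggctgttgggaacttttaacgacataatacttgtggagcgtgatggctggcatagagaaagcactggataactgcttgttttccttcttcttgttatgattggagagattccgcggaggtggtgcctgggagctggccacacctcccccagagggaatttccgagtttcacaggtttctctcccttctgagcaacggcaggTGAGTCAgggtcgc
LINC00261: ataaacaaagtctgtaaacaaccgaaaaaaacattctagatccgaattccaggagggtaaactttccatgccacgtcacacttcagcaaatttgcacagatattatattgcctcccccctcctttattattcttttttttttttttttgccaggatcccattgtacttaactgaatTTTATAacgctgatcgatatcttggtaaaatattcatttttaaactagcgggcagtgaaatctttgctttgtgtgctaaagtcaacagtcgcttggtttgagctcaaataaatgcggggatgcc
In the window of LINC00601 the AP-1 match begins 154 bases before the start and the TATA match 32 bases before it. LINC02725 has AP-1 matches 178 and 72 bases before its start, LINC02762 has 1 that begins 36 bases after it, and LINC00261 has a TATA match on the other strand 74 bases before. The window of LINC02511 holds no match to either motif. Single arms of the oestrogen response element, GGTCA or TGACC, are not in capitals. They begin 12 bases after the start in LINC00601, 170 before and 43 after it in LINC02725, and 242 before it in LINC02762.

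Every 1 of the 195 RNAs had enough counts to be tested, and all have a position in GENCODE 29. That annotation types 157 as lincRNA, 16 as processed transcripts, 8 as antisense, 7 as transcribed unprocessed pseudogenes, and 2, among them LINC02693, as protein-coding. The median length of merged exons was 2823 bases, with a range of 371 to 28876. A gene on the opposite strand overlapped 94 of them, a gene on the same strand 55, and 24 overlapped a protein-coding gene. The library kit keeps strand, but whether the counting used it is not given in the sources used here, so reads of overlapping genes may be mixed. For overlaps on the same strand they may be mixed in either case. Of the 195, 30 have a near-identical copy elsewhere (at least 95% identity over at least 50% of a transcript), and their counts are uncertain.

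Levels were low. The mean over 9 libraries ranged from 0.515 to 65.9 CPM with a median of 2.07 CPM, and 28 RNAs exceeded 10 CPM while 43 lay under 1 CPM. LINC00472, a transcript that others have linked to less aggressive breast tumours, was highest in CPM. It was also highest per length, at 19.1 CPM per kb of exon, ahead of LINC01116 at 12.8 CPM per kb and LINC01224 at 7.54 CPM per kb. LINC02693, second in CPM, is long and stood at 4.33 CPM per kb. The other RNAs among the 8 highest in CPM were LINC00205, LINC01278, LINC01578 (also called CHASERR, which restrains the neighbouring chromatin remodeller gene CHD2), LINC00662, LINC01224 and LINC01002. All 195 together took 0.0935 to 0.0990% of the counts in control libraries, 0.102 to 0.106% in ERβ1 libraries and 0.102 to 0.106% with CLI. The 3 control libraries were thus the lowest, though the RNAs were chosen on means in which 6 of the 9 libraries carried the receptor.

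That choice is not even-handed. By their control libraries alone 10 of the 195 would have missed the threshold, and by the 6 receptor libraries alone 0 would have. Those 10 entered only through the libraries where they are high. LINC02377, LINC01583, LINC00460, LINC00235 and LINC01176 are among them, and their values are given below as a description, with no test. The calls of the first 3 of these (ERβ1 against control) and of the first 4 (CLI against control) are part of the counts below. Over the other 185 RNAs 27 were higher and 9 lower with ERβ1, and 30 and 15 with CLI against control. Just inside it were LINC01023 at -0.90, LINC00235 at -0.88 and LINC02767 at -0.88, and just outside were LINC01085 at -1.004, LINC01419 at -1.005 and LINC01320 at -1.015 on the deposited log2 CPM scale. When the highest of the 3 group means was used instead, a setting chosen after the data were seen, 224 RNAs entered.

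With the receptor alone, more of these RNAs were called higher than lower. Of the 195, 39 passed an adjusted p of 0.05 in edgeR's quasi-likelihood test between ERβ1 and control cells, with 30 higher and 9 lower. Over all 17058 genes tested 21.4% were called, 10.7% higher and 10.7% lower, so that the called share of the RNAs (39 of 195) was near the background, while 15.4% were higher and 4.62% lower. At least a 2-fold change was called in 13 of the RNAs, 12 of them higher. The background is 3.67% called at 2-fold, and 2.72% higher. Because genes entered through a mean that favours receptor cells, nothing particular to the list is read from the direction: the median log2 fold change was 0.087, against -0.0006 over all genes tested. With the 224 RNAs of the other threshold, 34 were higher and 15 lower.

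**Figure D1:**
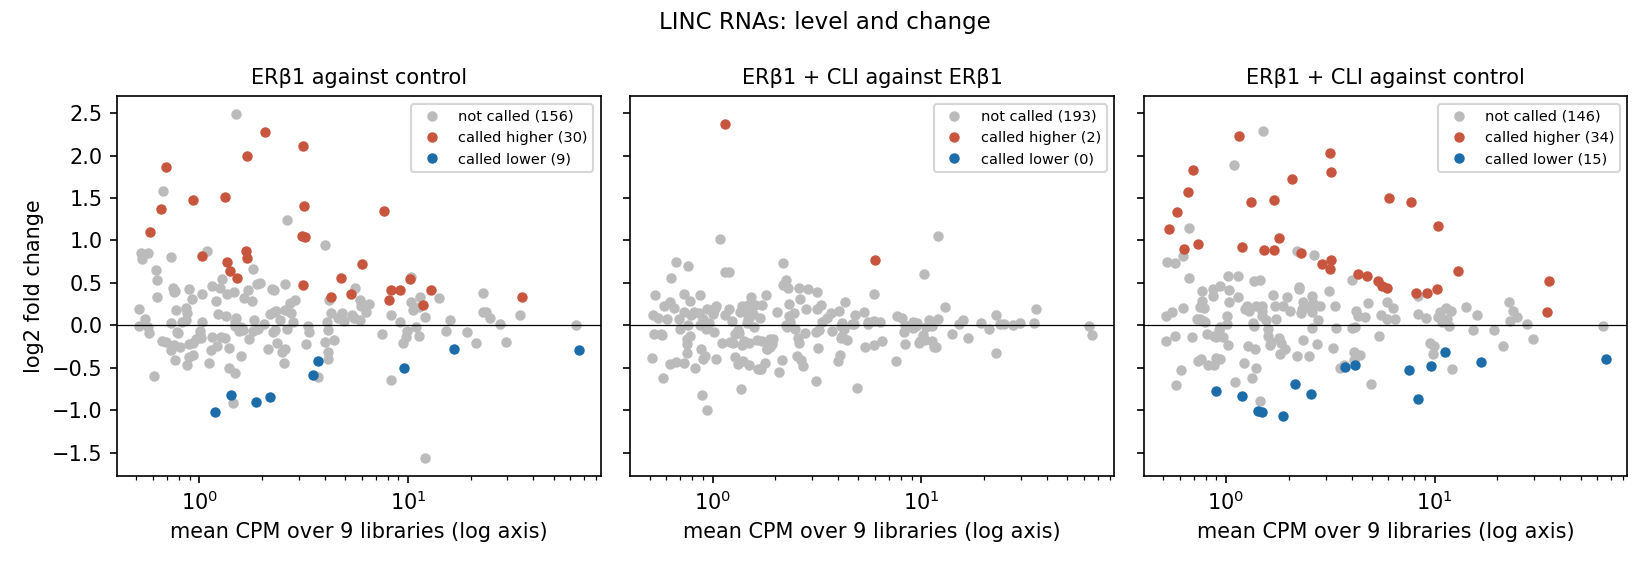
Mean CPM over 9 libraries (x axis, log scale) and log2 fold change (y axis) of the 195 LINC RNAs in each comparison, coloured by call at an adjusted p of 0.05. The 30 and 34 RNAs called higher against control reach above 2 on the log2 scale, few calls stand in the comparison of ERβ1 cells with and without CLI, and the highest grey points are RNAs that vary strongly between libraries.

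Of the 8 largest called rises, that of LINC02511 had the smallest adjusted p. It is an RNA of chromosome 4 (136796722 to 137212799, minus strand) with no function that can be named here. It read 1.01, 0.929 and 1.04 CPM in control libraries, 4.42, 4.95 and 3.58 CPM with the receptor and 3.55, 4.70 and 4.06 CPM with receptor and CLI. No receptor library came near the controls, and the CLI libraries overlapped the ERβ1 ones, with the lowest of them just under the lowest ERβ1 library. The log2 fold change was 2.11 ± 0.17 (SE) for ERβ1 against control (adjusted p = 5.65e-05) and -0.08 ± 0.15 for CLI against ERβ1 (adjusted p = 0.9). In bulk RNA, as here, a change in the share of cells that express an RNA and a change in its amount per cell cannot be told apart.

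LINC00601 lies on chromosome 10 (126413869 to 126421879, minus strand), 3.12 kb from C10orf90. Its level was 1.17, 1.63 and 1.22 CPM in control libraries, 3.75, 3.70 and 3.19 CPM in ERβ1 libraries and 4.56, 4.88 and 4.53 CPM with CLI. The 3 groups did not overlap and rose in that order. Against control the log2 fold change was 1.41 ± 0.15 with ERβ1 (adjusted p = 0.000301) and 1.80 ± 0.15 with CLI (adjusted p = 4.91e-05), while the step from ERβ1 to CLI, 0.39 ± 0.14, did not pass (adjusted p = 0.28).

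The other RNAs with the 8 largest rises in ERβ1 cells were mostly near or under 1 CPM in controls. LINC02377 on chromosome 4 went from 0.208, 0.212 and 0.338 CPM to 0.706, 0.964 and 1.13 CPM, from 33 counts in all control libraries together. LINC02725 on chromosome 11 went from 0.499, 0.656 and 0.650 CPM to 1.68, 1.71 and 1.76 CPM (1.51 ± 0.23, adjusted p = 0.00206). LINC01583 on chromosome 15 went from 0.335, 0.289 and 0.289 CPM to 0.816, 0.745 and 0.749 CPM. LINC02377 and LINC01583 are in the list only because of these receptor libraries. Control and ERβ1 libraries did not overlap in LINC02725. None of LINC02377, LINC02725 and LINC01583 has a known role that can be given here.

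LINC01943 and LINC02188 rose with a wide spread. LINC01943 on chromosome 2 read 0.847, 0.939 and 0.257 CPM in control libraries and 1.90, 3.16 and 4.82 CPM in ERβ1 libraries, a log2 fold change of 2.28 ± 0.52 (adjusted p = 0.0145). It has a near-identical copy, AC017002.3, and lies across from CYTOR, a long noncoding RNA known from many carcinomas, which stood at 76.7 CPM in controls and 85.1 CPM in ERβ1 cells. Its part in the value of LINC01943 was not tested. LINC02188 on chromosome 16 read 0.811, 0.536 and 0.604 CPM in controls, 3.10, 2.14 and 2.62 CPM with ERβ1 (2.00 ± 0.41, adjusted p = 0.0087), and 3.16, 1.15 and 1.2 CPM with CLI.

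**Figure D2:**
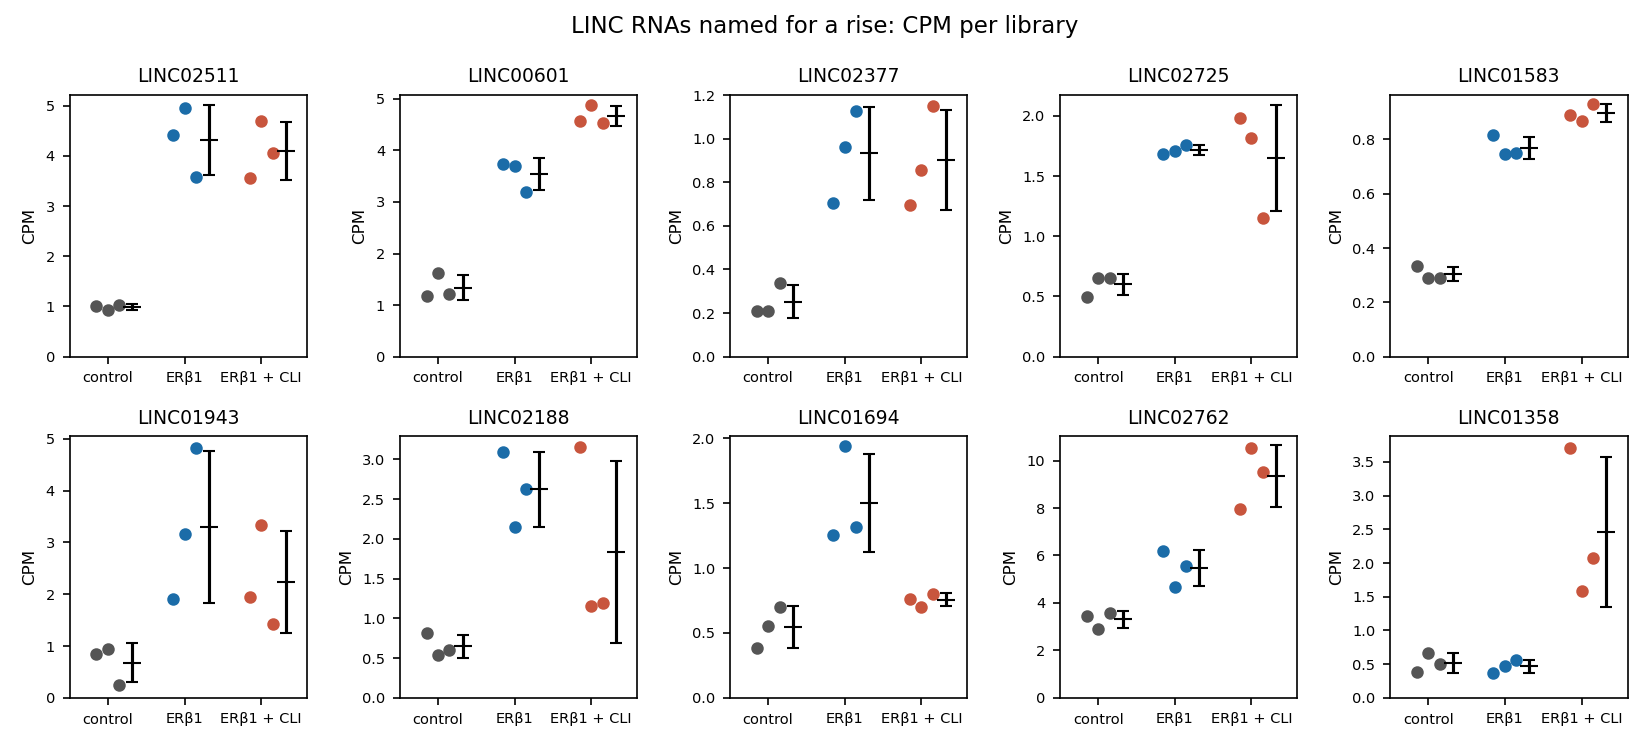
CPM (y axis, from 0) of 10 LINC RNAs named for a rise, in control, ERβ1 and ERβ1 + CLI cells. Points are libraries 1 to 3 of a group, the bar beside them is the mean ± SD (n = 3). LINC02511 stands at about 1 CPM in the controls and above 3.5 CPM in the receptor libraries, and LINC01358 is raised in the CLI libraries.

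LINC01615, outside the rule for named genes and picked after its values were seen, had the smallest adjusted p of the RNAs. It read 3.92, 3.34 and 3.67 CPM in control libraries, 8.83, 9.86 and 9.26 CPM with ERβ1 and 10.2, 9.76 and 10.2 CPM with CLI (log2 fold changes against control of 1.35 ± 0.09 and 1.46 ± 0.09, adjusted p = 1.68e-05 and 6.39e-06). It lies on chromosome 6, 52.9 kb from THBS2, the gene of the matrix protein thrombospondin 2. THBS2 went from 2.67 to 8.23 and 11.1 CPM on average (1.63, adjusted p = 0.000512, and 2.05, adjusted p = 9.6e-05).

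Called falls among the 195 RNAs were fewer and smaller. The threshold on the mean leaves out RNAs that stand near 0 in the receptor libraries, such as LINC02582 and LINC00923, which are given at the end. Nothing is therefore read from the number or size of the falls. Within the 195, LINC02154 on chromosome X had the largest, from 2.06, 1.42 and 1.75 CPM in controls to 1.01, 0.823 and 0.739 CPM in ERβ1 cells (-1.02 ± 0.21, adjusted p = 0.00971). LINC00261 on chromosome 20 read 2.42, 2.94 and 3.06 CPM in controls, 1.56, 1.73 and 1.2 CPM with ERβ1 and 1.57, 1.41 and 1.02 CPM with CLI (-0.90 ± 0.21, adjusted p = 0.0148, and -1.07 ± 0.21, adjusted p = 0.00535). This RNA is transcribed beside FOXA2, a pioneer factor gene of endoderm. Others have described it as promoting FOXA2 expression in human endoderm differentiation. Whether LINC00261 acts on FOXA2 in the cells used here was not tested. LINC02475 on chromosome 4 read 3.19, 2.6 and 2.62 CPM in controls and 1.85, 1.39 and 1.45 CPM with ERβ1 (-0.85 ± 0.15, adjusted p = 0.00505). With CLI it lay between, at 2.22, 2.16 and 2.15 CPM (0.48 ± 0.15 from ERβ1, adjusted p = 0.225).

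LINC01505 on chromosome 9 fell from 2.02, 2.30 and 1.88 CPM to 1.18, 1.2 and 1.11 CPM (-0.83 ± 0.18, adjusted p = 0.0107). LINC00339 on chromosome 1, near CDC42, fell from 12.3, 12.6 and 10.7 CPM to 8.44, 8.14 and 8.43 CPM (-0.51 ± 0.08, adjusted p = 0.00277). The most abundant of all, LINC00472 on chromosome 6, went from 74.2, 73.1 and 82.8 CPM to 61.0, 59.4 and 68.0 CPM (-0.29 ± 0.08, adjusted p = 0.0286). In each of these 3 the control libraries were all above the ERβ1 libraries. LINC01833 (-0.59 ± 0.18, adjusted p = 0.0454) and LINC01355 (-0.42 ± 0.12, adjusted p = 0.0401) passed narrowly.

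Of the 8 largest rises, the 6 other than LINC02377 and LINC01583 each kept their call whichever library was left out, and so did the falls of LINC02154, LINC02475, LINC01505 and LINC00339. LINC00261 lost it without control replicate 2 or 3 or ERβ1 replicate 3, with adjusted p up to 0.0528, LINC00472 in 4 of 9 cases (up to 0.105), LINC01833 in 6 (up to 0.133) and LINC01355 in 8 (up to 0.133). Without ERβ1 replicate 3 the number of RNAs called dropped from 39 to 22, and the called share of all genes dropped from 21.4% to 14.9%.

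**Figure D3:**
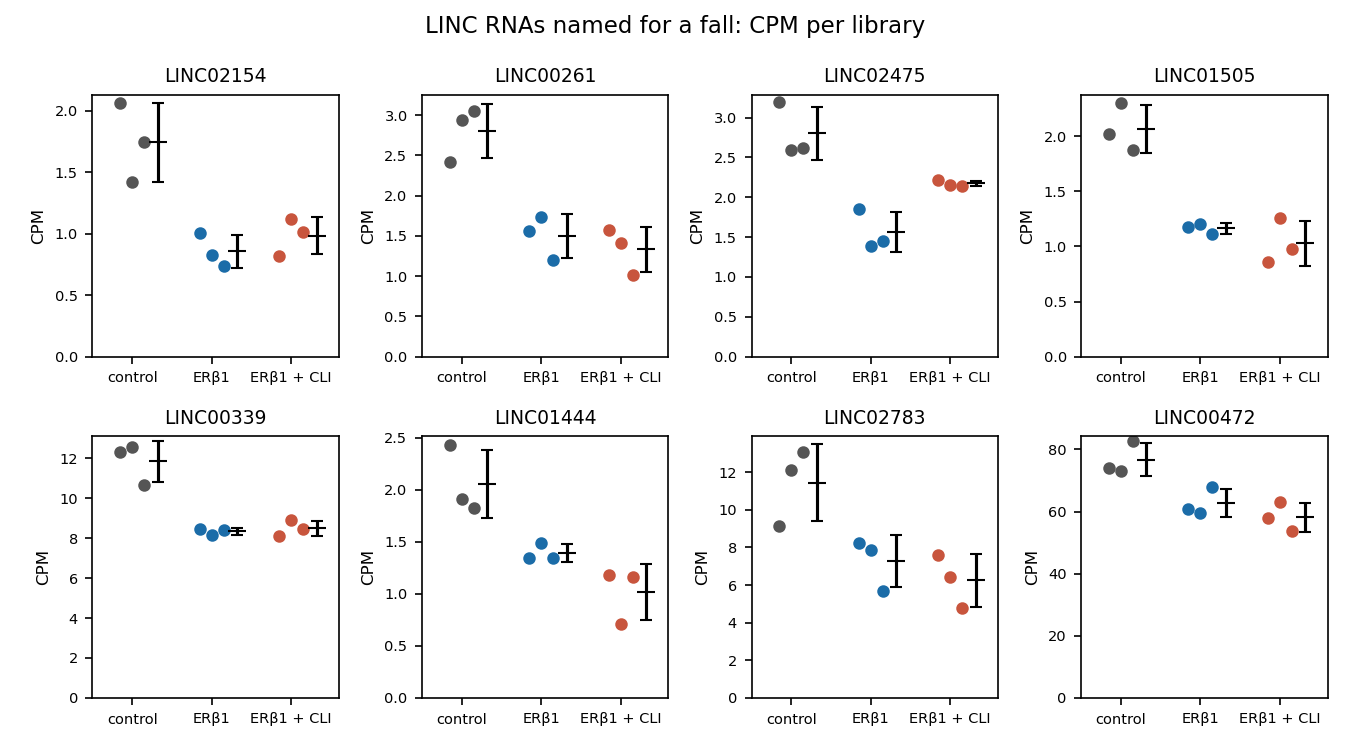
CPM (y axis, from 0) of 8 LINC RNAs named for a fall, in control, ERβ1 and ERβ1 + CLI cells. Points are libraries 1 to 3 and the bar is the mean ± SD (n = 3). LINC00261, LINC01505 and LINC00339 are lower in all 6 receptor libraries than in the 3 controls, and LINC02475 stands higher with CLI than with ERβ1 alone.

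Between ERβ1 cells with and without the ligand few of these RNAs were called. ESR2 itself differed between these groups, at 117 CPM with ERβ1 and 84.2 CPM with CLI (-0.48 ± 0.04, adjusted p = 0.000363). The part of this difference in the values below was not tested. Of the 195, 2 were called, both higher: LINC01358 and LINC02762. Over all genes tested 1.47% were called, 1.04% higher and 0.428% lower. At 2-fold 1 RNA was called, against 0.252% of all genes, or 0.246% higher. By unadjusted p, 27 of the 195 lay under 0.05, a share near the 12.8% of all genes, and the median log2 fold change was 0.0026, against -0.0003 over all genes tested.

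LINC01358 lies on chromosome 1 (58933643 to 59240555, plus strand), across from HSD52 and 149316 bases from the start of JUN, the gene of an AP-1 subunit. It read 0.381, 0.671 and 0.503 CPM in controls, 0.374, 0.475 and 0.559 CPM with ERβ1 and 3.71, 1.59 and 2.08 CPM with CLI. Control and ERβ1 libraries overlapped and all CLI libraries were above them, with replicate 1 highest. The log2 fold change from ERβ1 to CLI was 2.37 ± 0.37 (adjusted p = 0.0173), from 65 counts in the ERβ1 libraries together and 333 with CLI. JUN went from 218 to 196 CPM on average (-0.16, adjusted p = 0.0731).

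LINC02762 on chromosome 11 (112270749 to 112362534, plus strand) rose at both steps. Its level was 3.46, 2.90 and 3.57 CPM in controls, 6.18, 4.68 and 5.54 CPM with ERβ1 and 7.94, 10.5 and 9.52 CPM with CLI. The groups did not overlap. The log2 fold change was 0.72 ± 0.15 for ERβ1 against control (adjusted p = 0.0092) and 0.78 ± 0.14 for CLI against ERβ1 (adjusted p = 0.0388). PTS, a gene of tetrahydrobiopterin synthesis 0.79 kb away, stood at 21.51, 19.96 and 21.42 CPM in the 3 groups.

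Both calls depended on the fit. Same-numbered libraries with and without CLI counted as pairs by a residual correlation over 0.1 in each pair, although replicates 1 and 3 correlated as much across numbers (0.178 and 0.161, against 0.158 and 0.183 for the same number). With the replicate block 0 RNAs were called: LINC01358 had an adjusted p of 0.072 and LINC02762 of 0.1, or 0.129 and 0.208 with the replicate block within the 6 libraries compared. Of all genes 0.797% were called with the replicate block and 0.397% with the block within the 6 libraries. LINC01358 lost its call without any 1 of the 3 ERβ1 libraries (adjusted p up to 0.0841) and LINC02762 in 8 of 9 cases (up to 0.137), while their log2 fold changes stayed at 1.94 to 2.6 and 0.67 to 0.87.

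A few RNAs that rose with ERβ1 stood lower again with CLI, without passing the test. LINC01694 on chromosome 21 read 0.384, 0.557 and 0.702 CPM in controls, 1.26, 1.94 and 1.32 CPM with ERβ1 (1.47 ± 0.27, adjusted p = 0.00532) and 0.765, 0.703 and 0.799 CPM with CLI (-1.004 ± 0.26 from ERβ1, adjusted p = 0.128). LINC00880 and LINC01638, picked after their values were seen, had the same shape. LINC00880 read 1.14, 1.23 and 0.979 CPM, then 1.97, 1.83 and 1.84 CPM, then 1.25, 0.991 and 1.09 CPM (-0.76 ± 0.16 from ERβ1 to CLI, adjusted p = 0.0626). LINC01638, which others have described as a promoter of growth in triple negative breast cancer through MYC stability, read 2.45, 2.02 and 1.93 CPM, then 3.8, 5.19 and 4.29 CPM, then 2.55, 2.75 and 3.13 CPM (-0.66 ± 0.16, adjusted p = 0.095). LINC00880 and LINC01638 were picked with these values seen, and LINC01694 was named for its rise with ERβ1. Nothing is read from the gap between their ERβ1 and CLI libraries. DESeq2, an alternative test, called 5 RNAs: LINC01358 and LINC02762 higher, and LINC01605, LINC01638 and LINC00880 lower (adjusted p of 0.0102, 0.0232 and 0.0351). It called 3.76% of all genes in that comparison, where edgeR called 1.47%.

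Against control cells, ERβ1 cells with CLI had 49 of the 195 called, 34 higher and 15 lower. The background was 26.5% called, 13.3% higher and 13.1% lower, next to 25.1% of the RNAs. At 2-fold 17 were called, 14 of them higher, where 4.77% of all genes were called and 3.71% higher. The median log2 fold change was 0.11. This comparison shares libraries with both others, so the lists are set side by side only: 22 RNAs were higher in both receptor groups against control, 8 in ERβ1 cells alone and 12 with CLI alone, and 7 were lower in both, 2 in ERβ1 cells alone and 8 with CLI alone. A call in 1 of the groups and not in the other does not show a difference between them. In no comparison were 136 of the 195 called. The matching shares over all genes are not given here, so nothing particular to these RNAs is read from these counts.

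Among RNAs named for this comparison alone, LINC01444 on chromosome 18 read 2.43, 1.91 and 1.83 CPM in controls, 1.34, 1.49 and 1.34 CPM with ERβ1 and 1.18, 0.710 and 1.16 CPM with CLI (-1.02 ± 0.22 against control, adjusted p = 0.009), and has a near-identical copy, AP003062.1. LINC02783 on chromosome 1 read 9.15, 12.1 and 13.1 CPM, then 8.25, 7.88 and 5.68 CPM, then 7.58, 6.42 and 4.75 CPM (-0.87 ± 0.21, adjusted p = 0.0148). LINC02331 on chromosome 14 (-0.69 ± 0.15, adjusted p = 0.00979), LINC01776 on chromosome 1 (-0.77 ± 0.19, adjusted p = 0.0185) and LINC01949 on chromosome 5 (-0.81 ± 0.25, adjusted p = 0.0433) fell too. The mean of LINC02331 was 2.63, 2.17 and 1.64 CPM over the groups, and that of LINC01776 was 1.14, 0.879 and 0.673 CPM.

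LINC00235, one of those just inside the threshold, read 0.791, 0.700 and 0.667 CPM with CLI and 0.372, 0.227 and 0.361 CPM in controls, and it is in the list only because of its receptor libraries. LINC00205, which shares a start region with the glycosylation enzyme gene POFUT2, rose from 27.0, 26.9 and 31.9 CPM to 41.4, 41.7 and 40.5 CPM (0.53 ± 0.10, adjusted p = 0.00534). POFUT2 did not pass, at 55.5 and 59.6 CPM on average. LINC01278 rose by little, from 32.3 to 36.0 CPM (0.16 ± 0.04, adjusted p = 0.0265), in non-overlapping groups. Leaving out single libraries ended the calls of LINC01949 in 8 of 9 cases (adjusted p up to 0.128), LINC01943 in 6 (up to 0.118), LINC01278 in 4 (up to 0.0786), and LINC02188, LINC02783 and LINC01776 in 2 each (up to 0.0876, 0.0529 and 0.0697).

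RNAs that are known from cancer studies were looked at as a list of 30, of which 18 were among the 195. Against control 3 were higher and 2 lower with ERβ1, and 3 and 2 with CLI, while 0 were called from ERβ1 to CLI. That is 27.8% called against control in each receptor group, near the 21.4% and 26.5% of all genes. LINC00460, which is in the list only through its receptor libraries, is 1 of the 3 called higher in both. LINC00460, raised in several carcinomas, went from 0.274, 0.267 and 0.404 CPM to 0.827, 0.441 and 0.723 CPM with ERβ1 and 0.761, 0.784 and 0.773 CPM with CLI. LINC00641 rose from 7.56 ± 0.92 CPM (SD, n = 3) to 10.1 ± 0.92 and 9.83 ± 0.16 CPM (adjusted p = 0.0225 and 0.0262). LINC00665, which encodes a short peptide described in triple negative breast cancer, went from 6.89 ± 0.50 to 9.21 ± 1.02 CPM with ERβ1 (adjusted p = 0.0311) and 8.75 ± 0.97 CPM with CLI (adjusted p = 0.0553). LINC01503, active in squamous carcinomas, rose with CLI against control (0.95 ± 0.25, adjusted p = 0.022). With single libraries left out, the ERβ1 calls of LINC00665 and LINC00641 were lost in 4 and 3 of 9 cases (adjusted p up to 0.0967 and 0.0708), and the CLI calls of LINC00641 and LINC01503 in 5 and 4 (up to 0.0815 and 0.0762).

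Among the listed RNAs that passed no test were several of the best known. LINC00511, described as a scaffold for the histone methylase EZH2, varied from 6.75 to 15.9 CPM within the control group alone. LINC00467, which encodes a mitochondrial micropeptide, stood at 10.4 ± 0.70, 9.05 ± 0.77 and 8.995 ± 0.64 CPM. LINC01116 read 21.4, 19.7 and 20.5 CPM in controls, 27.9, 27.6 and 24.96 CPM with ERβ1 (0.39 ± 0.14, adjusted p = 0.0782) and 24.2, 16.2 and 23.6 CPM with CLI. LINC00518, whose level is used with PRAME in tests of melanoma, stood at 1.41, 1.19 and 1.04 CPM. LINC00662 differed by 0.01 ± 0.06 and LINC01234 by 0.08 ± 0.12 between ERβ1 and control on the log2 scale, while LINC00707, LINC00857, LINC00963, LINC00324, LINC00346 and LINC00173 had log2 differences between -0.50 and 0.22 in that comparison.

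A large change did not always mean a call. LINC01176 on chromosome 7, picked after its values were seen, read 5.76 CPM in ERβ1 replicate 1 and 5.29 CPM in CLI replicate 3 and 0.162 to 0.581 CPM in the other 7 libraries, and it was called in no comparison. LINC00680, a transcribed pseudogene with a near-identical copy at GUSBP1, ranged from 9.24 to 27.3 CPM in controls and from 3.25 to 21.2 CPM with CLI (-1.57 ± 0.70 for ERβ1 against control, adjusted p = 0.149). Over the 195, the median SD between libraries was 13.4% of the mean in control, 12.3% in ERβ1 and 12.7% in CLI libraries.

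Members of a family of near-identical RNAs on chromosome 1 rose against control. LINC01145 rose from 10.02 ± 0.49 CPM (SD, n = 3) to 13.3 ± 1.36 and 15.6 ± 1.45 CPM, and LINC00623 from 4.29 ± 0.40 to 5.55 ± 0.43 and 6.17 ± 0.14 CPM, each called against control in both receptor groups (log2 fold changes of 0.37 to 0.63). LINC01138 was called with CLI alone (0.72 ± 0.14, adjusted p = 0.00488), and LINC00869 varied from 1.13 to 3.8 CPM and was not called (adjusted p = 0.929 and 0.526). Reads of these copies cannot be assigned with certainty, so their counts are not independent. Of the 30 RNAs with such a copy, 4 were higher (13.3%) and 1 lower (3.33%) with ERβ1. Of the 165 without, 26 were higher (15.8%) and 8 lower (4.85%).

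On the first 28 Mb of chromosome 1 lie 9 of the RNAs, spread over the stretch, of which 0 were higher and 3 lower with ERβ1 (LINC00339, LINC01355 and LINC01128), and 0 and 4 with CLI against control, LINC02783 included. Over all genes 10.7% and 13.1% were lower. Their median log2 fold change with ERβ1 was -0.26. CDC42, a protein-coding gene of that stretch, went from 335 to 264 CPM (-0.34, adjusted p = 9.12e-05). This stretch was picked with results of these data known, so nothing is read from its counts.

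Neighbouring protein-coding genes were compared, since some of these RNAs act on the gene beside them. Within 50 kb of a protein-coding gene, overlaps included, lay 139 of the 195. Of the 39 called with ERβ1, 25 had such a neighbour and 20 of these neighbours were tested, of which 6 were called the same way and 1 the opposite way. Among RNAs that were not called, 27 of 95 tested neighbours (28.4%) were called in either direction. Over the 115 pairs the log2 fold changes had a Pearson correlation of 0.483 and a Spearman correlation of 0.157, given as a description, and the former rests on a few far points, LINC01176 with its overlapping gene AC006978.2 (8.09) above all. With CLI against control, 8 of 23 tested neighbours were called the same way and 3 the opposite way, against 33 of 92 (35.9%) beside RNAs not called.

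**Figure D4:**
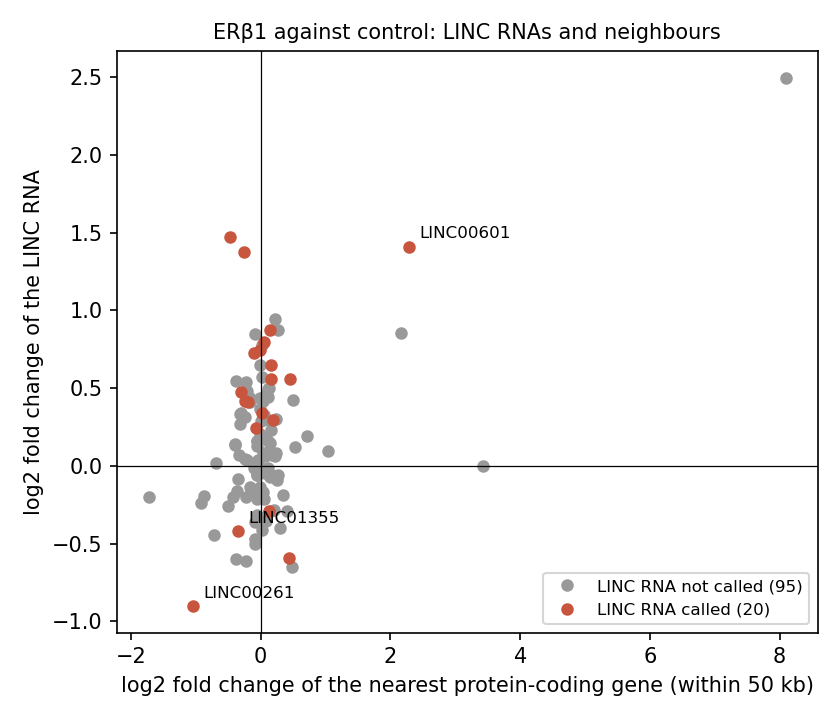
Log2 fold change between ERβ1 and control cells of the LINC RNA (y axis) and of the nearest protein-coding gene within 50 kb (x axis) for 115 pairs, coloured by the call of the RNA. LINC00601 with C10orf90 lies high in both and LINC00261 with FOXA2 low in both, and most other called RNAs lie above a neighbour that hardly moved.

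Some neighbours moved with their RNA. C10orf90 beside LINC00601 read 0.155, 0.211 and 0.278 CPM in controls, 0.998, 0.960 and 1.197 CPM with ERβ1 and 1.59, 1.68 and 1.64 CPM with CLI (2.28 ± 0.24, adjusted p = 0.000245, and 2.93 with CLI). FOXA2, 2.36 kb from LINC00261, fell from 7.56, 7.98 and 7.80 CPM to 3.8, 3.61 and 3.88 CPM and 3.52, 3.61 and 3.86 CPM (-1.05 ± 0.08, adjusted p = 6.26e-05). HNRNPR, an RNA-binding protein gene 17.0 kb from LINC01355, fell from 275 to 216 and 214 CPM (-0.35, adjusted p = 0.000512). RASA1, the gene of a Ras inhibitor 27.7 kb from LINC01949, fell from 210.0 to 128 and 139 CPM, and with CLI against control (-0.60, adjusted p = 4.28e-05) LINC01949 was called lower too, a call lost in 8 of 9 cases with 1 library left out. With ERβ1 alone RASA1 was at -0.71 (adjusted p = 2.36e-05) while LINC01949, at -0.45, was not called.

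Others did not. HNRNPC, a splicing factor gene 2.24 kb from LINC00641, fell from 782 to 685 CPM (-0.19, adjusted p = 0.0385) while the RNA rose. OGFRL1 beside LINC00472 was higher with CLI (0.29, adjusted p = 0.000742) while the RNA was lower. Beside LINC02693, whose log2 fold change was 0.0003 ± 0.07, the potassium channel gene KCNJ12 had one of 3.43 with ERβ1. The level and test result of KCNJ12 are not given here, so nothing is read from that pair. Of the 16 RNAs whose start lies within 1000 bases of a protein-coding start on the opposite strand, 2 were higher (12.5%) and 0 lower with ERβ1. Of the 56 with no protein-coding gene within 50 kb, 11 were higher (19.6%) and 3 lower (5.36%). Over all 195 the shares were 15.4% and 4.62%, and over all genes 10.7% each way.

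RefSeq promoter windows could be matched by Ensembl ID, or by symbol where that failed, to 128 of the 195. In 105 the RefSeq start was within 1000 bases of the GENCODE 29 start. The AP-1 motif TGANTCA was in 7.71% of all 35116 windows of the table and in 14.8% of the 128. It was in 10 of the 34 windows of RNAs called higher against control in either receptor group (29.4%), in 1 of 11 of those called lower and in 8 of 83 of those not called (9.64%). The 34 include LINC00460, which entered the list only through its receptor libraries and has AP-1 matches 44 and 17 bases before its start. Nothing is therefore read from the difference between these sets. The single arm of the oestrogen response element, GGTCA or TGACC, was in 37.4% of all windows, 52.9% of those called higher, 27.3% of those called lower and 39.8% of those not called. Both arms as an inverted repeat 3 bases apart were in 0.057% of all windows and in 0 of the 128. The TATA motif was in 11.5% of all windows, 17.2% of the 128, 23.5% of those called higher and 27.3% of those called lower. A match says that these letters are in the window and no more.

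**Figure D5:**
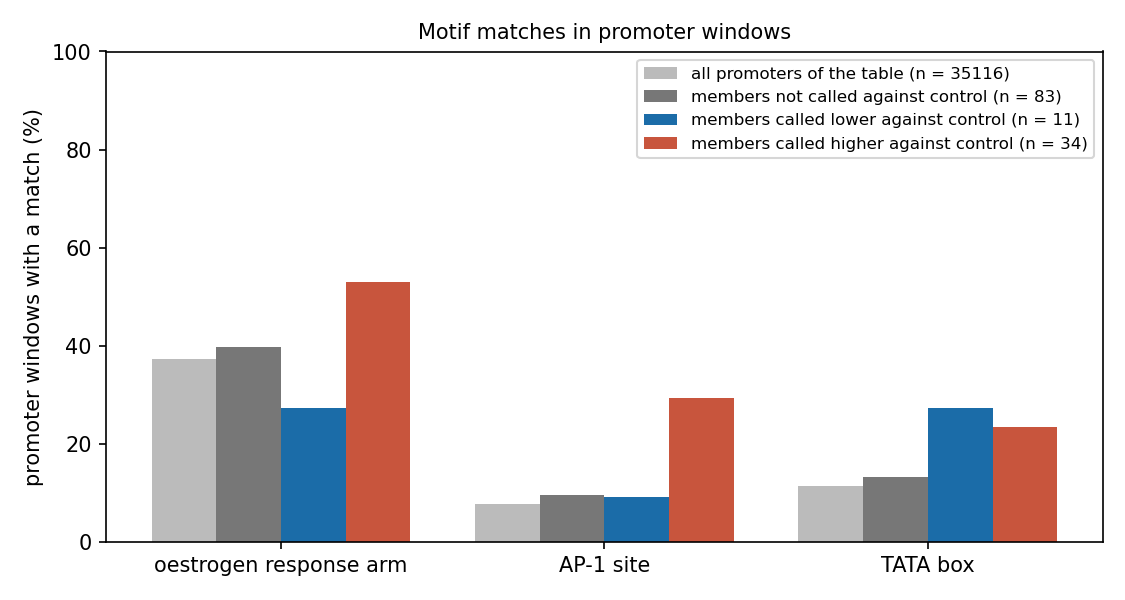
Share of promoter windows with a match (y axis, percent, from 0) to the single arm of the oestrogen response element, the AP-1 motif and the TATA motif, in all 35116 windows and in windows of LINC RNAs not called (83), called lower (11) or called higher (34) against control. The AP-1 bar stands at 29.4% for RNAs called higher and between 7.71 and 9.64% for the other sets. The RNAs called higher include LINC00460, which entered the list only through its receptor libraries.

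Long noncoding RNAs with other names were compared as lists. Of 26 tested host genes of small nucleolar RNAs, which are spliced transcripts whose introns carry guides for ribosomal RNA modification, 1 was higher (3.85%) and 9 lower (34.6%) with ERβ1, next to 10.7% each way of all genes, and 1 (3.85%) and 12 (46.2%) with CLI against control, next to 13.3% and 13.1%. SNHG1 went from 103 to 78.4 and 78.6 CPM (-0.39 and -0.39) and SNHG3 from 62.5 to 37.6 and 35.8 CPM (-0.73 and -0.80). Of 416 tested antisense RNAs 21 were higher and 14 lower with ERβ1, and 8.41% called is under the 21.4% of all genes. The called share depends on level too, and levels were not matched between this list and all genes. Nothing is therefore read from that gap. Of 27 microRNA hosts 5 were higher and 1 lower (22.2% called), and of 21 tested well known long noncoding RNAs 2 and 3 (23.8% called), both near that background. Their extreme was UCA1, a growth-promoting RNA named for bladder carcinoma, at 41.4 CPM in controls, 230.0 CPM with ERβ1 and 331 CPM with CLI (2.47, adjusted p = 3.68e-09, and 0.53 from ERβ1 to CLI, adjusted p = 0.000281). AFAP1-AS1, an antisense RNA raised in many carcinomas, fell from 23.6 to 4.28 CPM (-2.47, adjusted p = 4.7e-07).

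The cells carried the marks of their label. Markers of basal, mesenchymal-like breast cancer cells (6 genes) summed to 8194 to 8663 CPM in control, 7100 to 7332 CPM in ERβ1 and 6820 to 7236 CPM in CLI libraries, with the receptor groups under the controls. The 8 markers of luminal epithelium, nearly all of it KRT8, summed to 587 to 599, 524 to 542 and 519 to 525 CPM. Among them ESR1, the gene of the other oestrogen receptor, averaged 0.010, 0.095 and 2.27 CPM over the groups (up to 5.99 CPM in 1 library), SPDEF 3.05, 0.435 and 0.473 CPM, and AGR2 0.882, 0 and 0 CPM. Fibroblast markers (5 genes) summed to 20.1 to 28.3 CPM in control, 25.4 to 35.1 CPM in ERβ1 and 26.7 to 38.0 CPM in CLI libraries. Blood markers summed to 1.29 to 2.27, 2.40 to 4.71 and 2.66 to 4.66 CPM, with HBB at 0. Keratinocyte markers (3 genes) summed to 28.9 to 30.8, 31.4 to 34.1 and 30.2 to 33.6 CPM. The part of these shifts in the values above was not tested.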

How the data were processed

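Stranded polyadenylated RNA of 9 libraries was sequenced in single reads of 101 cycles on 1 NovaSeq lane, per the labels' protocols. The submitters' processing notes name bcl2fastq 2.20, FastQC, Trimmomatic 0.38, Salmon 1.2.1, R 4.0.2, edgeR 3.30.3 and GRCh38. Not given in the sources used here are the CLI dose, tool settings and annotation release. The labels number the cell line upward from MDA-MB-231 from library to library, and all were read as MDA-MB-231. The authors deposited estimated counts per gene (expected counts, not normalized) and log2 CPM scaled by TMM, as the table is titled. Every column of per-sample values was used (0 left out).

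The estimated counts were rounded and tested in R 4.3.3 with edgeR 4.0.16: filterByExpr by group, TMM, 1 quasi-likelihood fit of 9 libraries, 2-sided, with Benjamini and Hochberg adjustment over 17058 genes. CPM are per 1000000 TMM-scaled counts. The SE is the log2 fold change over the square root of F. Exact permutation of 3 against 3 cannot go below 0.1. DESeq2 1.42.0 and limma 3.58.1 served as alternatives, with other scalings, filters, thresholds of membership, a replicate block, the 6 libraries alone and each library left out. The fit was tested on simulated data. Positions come from GENCODE 29, promoters from RefSeq (GRCh38.p14), and copies from minimap2 2.31.

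The members and lists were chosen with earlier results of these data known. Named were ESR2, up to 8 largest called rises and falls per comparison, the 8 highest in CPM, 3 on each side of the threshold, members of the cancer list, their nearest protein-coding genes within 50 kb, and up to 4 called RNAs per other list. Numbers in the titles counted as pairs where residuals of same-numbered libraries (12574 genes) correlated over 0.1 in every pair: 0.158, 0.441 and 0.183 for CLI against ERβ1 (replicates 1 and 3 across numbers: 0.178 and 0.161), and -0.091, -0.067 and 0.036, and 0.045, 0.003 and 0.055, against control, which did not count. Replicates differed by more than counting noise.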

Additional observations from a re-analysis of the deposited data

How the results depend on the processing

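Depth limits the RNAs under 1 CPM, whose groups rest on few counts. No call of a named RNA reversed its direction in any setting run. Of the calls of named RNAs, 13 of 21 for ERβ1 against control, 0 of 2 for CLI against ERβ1 and 16 of 26 for CLI against control held in every setting that gave a value (2 of the 13, LINC02377 and LINC01583, and 4 of the 16, these with LINC00235 and LINC00460, gave none with at least 1 CPM in 3 libraries). LINC02377, LINC01583, LINC00235 and LINC00460 are in the list only through their receptor libraries, so nothing is read from their calls that held. For ERβ1 against control, 39 RNAs were called, 22 to 37 with 1 library left out (22 without ERβ1 replicate 3) and 34 with the replicate block, which is not a pairing here. Of all genes 21.4% were called, 14.4 to 20.9% with 1 library left out and 19.9% with the replicate block. The 13 calls at 2-fold became 27 with all LINC rows and 23 with membership by the highest group mean. The median of 0.087 was 0.12 in limma-trend on the deposited log2 CPM and 0.087 to 0.12 with 1 library left out. For CLI against ERβ1, where the numbers count as pairs, 2 calls became 0 with the replicate block and 0 with the replicate block within the 6 libraries compared (added after seeing the data, as was the highest group mean), 5 in DESeq2, 1 at a membership of at least 0, and 0 to 2 with 1 library left out. Of all genes 1.47% were called, 0.797 and 0.397% in the block fits, 3.76% in DESeq2 and 0.654 to 1.21% with 1 library left out. The 1 call at 2-fold became 0 in both block fits and at a membership of at least 0, and 0 to 1 with 1 library left out. The median of 0.0026 had no stable sign: it was -0.0043 with no gene filter, -0.0005 at a membership of at least 0, -0.0068 with all LINC rows and by the highest group mean, and -0.0185 to 0.0112 with 1 library left out. For CLI against control, 49 RNAs were called, 47 with the replicate block and 36 to 48 with 1 library left out. The 17 calls at 2-fold became 33 with all LINC rows and 26 by the highest group mean. The median of 0.11 ran from 0.0905 to 0.16 with 1 library left out. The causes were not tested.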

Other observations

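LINC-named RNAs that missed the threshold held some of the largest changes. Of these 197 rows 103 could be tested, and 8 were higher and 6 lower with ERβ1 against control (13.6% called, next to 21.4% of all genes), 11 higher and 7 lower with CLI against control (17.5%, next to 26.5%), and 0 were called between ERβ1 cells with and without CLI in edgeR (6 at an unadjusted p under 0.05). The RNAs below were picked after their values were seen.

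LINC02582 on chromosome 18 read 1.78, 1.70 and 1.54 CPM in control libraries, 0.0536, 0.0245 and 0 CPM with ERβ1 and 0.0185, 0.0148 and 0.0643 CPM with CLI, from 220 counts in the controls to 4 and 4 counts in the receptor groups (adjusted p = 9.25e-05 and 7.92e-05). LINC00923 on chromosome 15 went the same way, from 0.864, 0.920 and 0.919 CPM to 0, 0.0367 and 0.0489 CPM and 0.0383, 0.0607 and 0.0228 CPM (118, 4 and 6 counts). Both stood near 0 in all 6 receptor libraries, which kept their means under the threshold. LINC00470 (-1.94), LINC01787 (-1.82), LINC01446 (-2.51) and LINC01515 (-1.58) also fell with ERβ1 on the log2 scale.

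LINC02487 on chromosome 6 was called higher with the receptor, from 2 counts in the controls together to 30 with ERβ1 and 125 with CLI, and its libraries with CLI read 1.10, 0.619 and 1.03 CPM (adjusted p = 0.016 for ERβ1 against control and 0.11 for CLI against ERβ1). LINC02104 on chromosome 5 rose from 0.177, 0.0933 and 0.209 CPM to 0.916, 0.744 and 0.640 CPM with ERβ1 (2.25 ± 0.36, adjusted p = 0.00245). LINC01348 on chromosome 1 read 12, 41 and 15 counts in the 3 groups and was called higher with ERβ1 (1.65 ± 0.44, adjusted p = 0.0292), with a log2 step of -1.42 ± 0.43 from ERβ1 to CLI (adjusted p = 0.194).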
